A study of Homo sapiens with 6 samples.

Results

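The difference between PTUPB 20 uM with and without enzalutamide was read from 2 of the 6 libraries of the study, PTUPB 20 uM plus enzalutamide against PTUPB 20 uM. The labels do not give the order of the 2 agents, and "added" below means only that enzalutamide was also present. The members were the genes with a mean FPKM (fragments scaled by exon length and library depth, as the authors deposited them) of 1 or more over the 6 libraries, which were 12960 of the 58735 genes in the table. Each difference below is log2(FPKM + 1) with enzalutamide minus log2(FPKM + 1) without it, so a positive value means a higher level with enzalutamide. All 6 libraries came from C4-2B MDVR, an established human prostate cancer line derived from C4-2B that is resistant to enzalutamide, and the resistant line is therefore the background shared by every group. The cells were treated for 2 days, and the groups were control (DMSO), enzalutamide at 20 uM, PTUPB at 10 uM, PTUPB at 20 uM, and each PTUPB dose plus enzalutamide. The labels give the enzalutamide dose for the single-agent library and not for the combinations, where an equal dose was assumed. With 1 library per group no difference between 2 libraries has a replicate check, so the pairs are given as values, with 95% counting intervals of the FPKM ratio that cover counting error alone.

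Enzalutamide is an antiandrogen that blocks androgen signalling and so lowers androgen-induced genes, among them KLK3 (prostate-specific antigen), TMPRSS2 and FKBP5. PTUPB inhibits both cyclooxygenase-2, which turns arachidonic acid into prostaglandins, and soluble epoxide hydrolase, which breaks down epoxy fatty acids. In the unfolded protein response, misfolded protein in the endoplasmic reticulum activates the sensors ATF6, ERN1 (IRE1) and PERK; ATF6 and spliced XBP1 raise chaperone genes such as HSPA5, while PERK acts through ATF4 on amino acid and stress genes.

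The groups described below included endoplasmic reticulum chaperones, metallothioneins and mitotic genes, and the promoters of 5 of their members are shown to let a reader see the elements these groups are known for. Each is the 250 bases before the RefSeq start of the gene in GRCh38.p14, 5′ to 3′ on the strand of the gene. Capitals mark matches on either strand. For HSPA5 (chr9:125241344-125241593, minus strand), HSP90B1 (chr12:103930160-103930409, plus strand) and CALR (chr19:12938359-12938608, plus strand) they mark the endoplasmic reticulum stress element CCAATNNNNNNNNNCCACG. For MT2A (chr16:56608334-56608583, plus strand) they mark the metal response element, searched as TGCACNC or TGCGCNC. For CDC20 (chr1:43358731-43358980, plus strand) they mark TTTGAA, the cell cycle genes homology region of genes expressed in G2 and mitosis.
HSPA5: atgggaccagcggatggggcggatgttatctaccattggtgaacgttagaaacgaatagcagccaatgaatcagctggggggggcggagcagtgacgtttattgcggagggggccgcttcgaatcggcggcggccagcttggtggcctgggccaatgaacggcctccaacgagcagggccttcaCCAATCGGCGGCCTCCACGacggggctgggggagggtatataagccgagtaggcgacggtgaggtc
HSP90B1: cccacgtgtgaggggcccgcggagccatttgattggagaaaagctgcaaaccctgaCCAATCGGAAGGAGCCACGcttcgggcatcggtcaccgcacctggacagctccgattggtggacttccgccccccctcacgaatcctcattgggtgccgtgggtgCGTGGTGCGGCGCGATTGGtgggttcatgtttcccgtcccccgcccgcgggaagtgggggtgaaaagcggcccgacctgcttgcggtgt
CALR: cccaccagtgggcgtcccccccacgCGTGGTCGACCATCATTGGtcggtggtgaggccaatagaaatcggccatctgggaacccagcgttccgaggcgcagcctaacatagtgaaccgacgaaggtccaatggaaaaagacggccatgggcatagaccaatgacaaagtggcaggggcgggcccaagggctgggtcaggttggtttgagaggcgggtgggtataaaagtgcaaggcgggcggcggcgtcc
MT2A: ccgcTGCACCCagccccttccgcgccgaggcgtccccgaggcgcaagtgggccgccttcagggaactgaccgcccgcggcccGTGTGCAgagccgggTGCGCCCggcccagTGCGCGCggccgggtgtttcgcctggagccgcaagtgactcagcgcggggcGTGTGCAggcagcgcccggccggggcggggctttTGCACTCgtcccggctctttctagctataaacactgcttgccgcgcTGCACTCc
CDC20: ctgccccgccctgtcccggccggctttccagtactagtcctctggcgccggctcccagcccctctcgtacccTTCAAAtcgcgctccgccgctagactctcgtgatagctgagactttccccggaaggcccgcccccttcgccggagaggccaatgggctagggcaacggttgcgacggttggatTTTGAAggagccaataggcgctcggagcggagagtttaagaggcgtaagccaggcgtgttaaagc
The stress element was found in 26 of 35116 RefSeq promoter windows of this length (0.0740%) and in 7 of the 21 chaperone and unfolded protein response genes with a window: HSPA5, HSP90B1, PDIA6, CALR, CANX, CRELD2 and XBP1. The metal response element was present in 24.8% of all windows and in 4 of 4 metallothionein and zinc export genes with one, and TTTGAA in 13.3% of all windows and 14 of 25 G2/M genes. None of the marked matches overlapped a match of another of these elements (0 in each window), and a match describes the sequence only, not a bound site.

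Of the 12960 genes, 497 (3.83%) were higher by log2 1 or more when enzalutamide was added to PTUPB 20 uM and 376 (2.9%) were lower, 873 (6.74%) together, while 12087 lay between. These shares are the background for the list counts below. Among those past the margin 56.9% were higher, against 22.5% after rescaling to TPM (transcript abundance with a fixed sum per library), which moved the median of all genes from 0.04 to -0.24. The middle of the distribution was narrow, with the 25th and 75th percentiles at -0.29 and 0.36 and the 10th and 90th at -0.61 and 0.67. At PTUPB 10 uM enzalutamide gave 183 genes higher (1.41%) and 260 lower (2.01%), and without PTUPB 170 (1.31%) and 178 (1.37%). Low counts made up much of the tails: 429 of the 873 genes had a mean of under 50 fragments over the 6 libraries, and with these left out the counts were 260 higher (2.22%) and 184 lower (1.57%) of 11694 genes. Protein-coding genes accounted for 209 of the higher and 130 of the lower genes (3.17% of 10693), whereas 38 of 91 small nucleolar RNA genes were higher and 13 lower. The small nucleolar RNA genes had a median of 10 fragments in the higher library of the pair, against 930 for protein-coding genes. Their share past the margin (56.0%) was like that of microRNA genes (54.5%, median 8 fragments) and small nuclear RNA genes (55.8%, median 7 fragments).

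**Figure D1:**
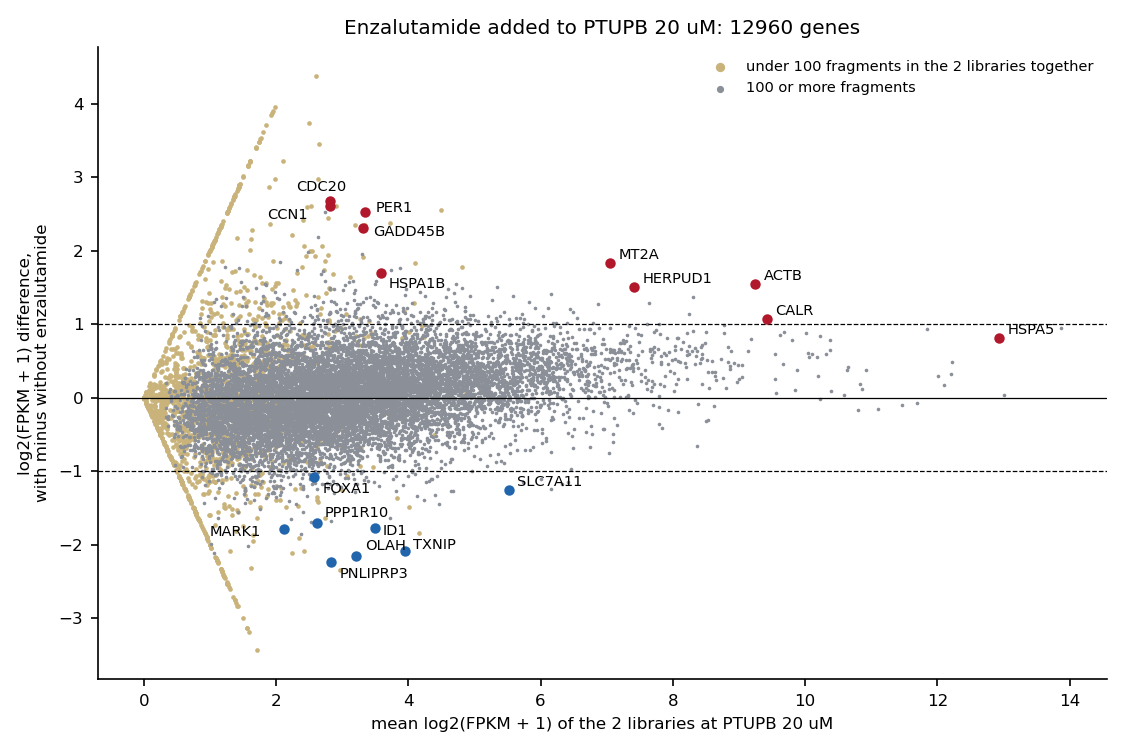
Each point is a gene, with the mean log2(FPKM + 1) of the 2 libraries at PTUPB 20 uM on the x axis and the difference with minus without enzalutamide on the y axis; dashed lines mark log2 1 and red and blue points are named genes on the higher and lower side. The outermost points are mostly genes with few fragments (tan), and CDC20, CCN1, PER1 and GADD45B stand at 2.31 to 2.67 on the higher side while PNLIPRP3, OLAH and TXNIP stand at -2.09 to -2.23 on the lower side.

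The largest positive differences among well-counted protein-coding genes were in a mitotic activator, a matricellular protein, a clock repressor and a stress-inducible gene. CDC20 (ENSG00000117399, GRCh38 chromosome 1, 43358955 to 43363203), the activator of the anaphase-promoting complex in mitosis, stood at 41.4 FPKM in control, 30.3 with enzalutamide, 30.2 and 9.25 at PTUPB 10 uM without and with enzalutamide, and 1.79 and 16.7 at PTUPB 20 uM without and with it. The library with PTUPB 20 uM alone was thus the lowest of the 6, and the pair at 20 uM differed 9.37-fold (7.47 to 11.9; 86 against 626 fragments). CCN1, which encodes a secreted matrix-associated growth regulator, stayed between 1.84 and 4.24 FPKM in 5 libraries and reached 16.3 with PTUPB 20 uM plus enzalutamide, 8.82-fold (7.19 to 10.9) above PTUPB 20 uM alone. PER1, a repressor in the circadian clock that steroid hormones also induce, read 4.49, 2.76, 3.41, 2.90, 3.23 and 23.3 FPKM in the same order. Only the last library left that range, at 7.19-fold (6.56 to 7.90) over its partner. GADD45B, a stress-inducible regulator of p38 and JNK signalling, was 3.46 FPKM in both control and PTUPB 20 uM, 1.15 to 3.13 in the next 3 libraries, and 21.2 with PTUPB 20 uM plus enzalutamide, a 6.11-fold difference (5.19 to 7.24). The other members of the 12 largest were small or non-coding RNA genes, a pseudogene and the immunoglobulin gene IGHE, for example RNA5SP155, a 5S ribosomal RNA pseudogene, at 1 against 63 fragments.

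Lower genes of the same size included enzymes of lipid handling and a glucose-responsive regulator. PNLIPRP3, a gene of the pancreatic lipase family, read 1.36 and 0.180 FPKM without PTUPB, 2.75 and 0.450 at 10 uM and 14.5 and 2.29 at 20 uM, each pair given without and then with enzalutamide. It was lower with enzalutamide in each of the 3 pairs, and at 20 uM by 6.31-fold (5.11 to 7.85). OLAH, the thioesterase that releases free fatty acids from fatty acid synthase, was at or under 0.208 FPKM in the 4 libraries without PTUPB 20 uM. It read 18.6 with PTUPB 20 uM and 3.41 with PTUPB 20 uM plus enzalutamide (5.45-fold lower, 4.58 to 6.51). TXNIP, which binds thioredoxin and restrains glucose uptake, was at 62.6, 34.5, 57.8 and 48.4 FPKM in control, enzalutamide, PTUPB 10 uM and its combination, 30.9 with PTUPB 20 uM and 6.5 with the addition (4.75-fold lower, 4.29 to 5.27). MARK1, a microtubule affinity-regulating kinase, was 5.28-fold lower (7.12 against 1.35 FPKM), and PPP1R10, a nuclear regulatory subunit of protein phosphatase 1, 4.20-fold lower (10.1 against 2.39, and 18.3 to 20.1 in the other 4 libraries). ID1, an inhibitor of basic helix-loop-helix transcription factors, was lower at 20 uM (19.8 against 5.08 FPKM) and higher at 10 uM (6.75 against 23.4). A further set was picked after its values were seen: SFRP1, a secreted WNT antagonist, CD46, a complement regulator, and NOS3, endothelial nitric oxide synthase, were 4.23-fold, 2.69-fold and 2.87-fold lower, and ARHGDIA, a GDP dissociation inhibitor of small GTPases, and GADD45G were 3.05-fold and 3.0-fold higher.

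**Figure D2:**
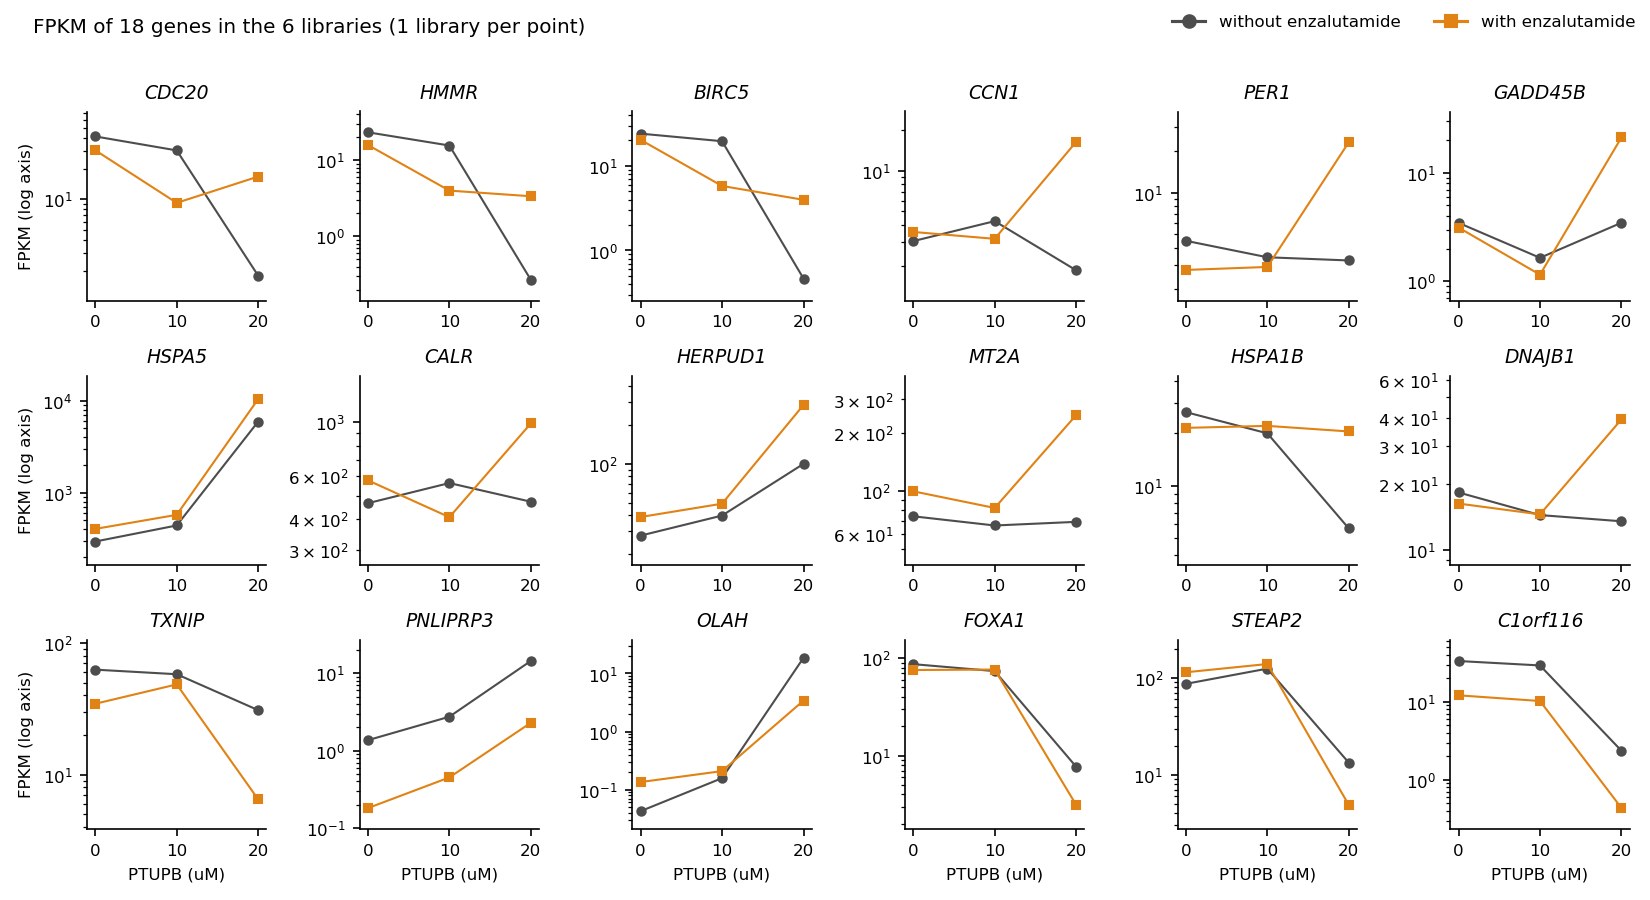
FPKM (log axis) of 18 genes against PTUPB dose in uM, without enzalutamide (grey circles) and with it (orange squares), 1 library per point. CDC20, HMMR and BIRC5 are lowest in the library with PTUPB 20 uM alone, CCN1, PER1, GADD45B, MT2A and DNAJB1 are highest in the library with PTUPB 20 uM plus enzalutamide, and TXNIP, FOXA1, STEAP2 and C1orf116 are lowest there.

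Most endoplasmic reticulum chaperone genes were higher with enzalutamide on top of PTUPB 20 uM. Of 23 measured members of the chaperone and unfolded protein response list, 2 were higher by log2 1 or more and 0 lower, 19 lay above 0 (18 after TPM), and the median was 0.57, which is 0.53 above that of all genes (0.51 after TPM). The list median was -0.08 at 10 uM and 0.33 without PTUPB. HSPA5, the main chaperone of that compartment (BiP), read 294, 403, 440 and 574 FPKM in control, enzalutamide, PTUPB 10 uM and PTUPB 10 uM plus enzalutamide, and 5919 and 10392 at PTUPB 20 uM without and with enzalutamide. Between the last 2 libraries the difference was 1.76-fold (1.75 to 1.76), or 0.81 on the log2 scale, and HSPA5 took 2.44% of all fragments in the first and 3.70% in the second. HERPUD1, part of the degradation machinery of the compartment, was 2.86-fold higher (2.80 to 2.93; 100 against 287 FPKM, and 27.8 to 49.1 elsewhere). CALR, the lectin chaperone calreticulin, was 472 FPKM with PTUPB 20 uM and 408 to 578 in the first 4 libraries, and it reached 989 with the combination (2.09-fold, 2.06 to 2.12). For CALR the 2 libraries at 20 uM therefore lay apart although PTUPB 20 uM alone was within the range of the other 4.

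The remaining measured members of the list stayed within the margin. HSP90B1 (GRP94) was 1.86-fold higher, from 604 to 1124 FPKM, and MANF, a secreted stress-induced factor, 1.94-fold. The protein disulfide isomerases PDIA3, PDIA4 and PDIA6 were 1.42-fold, 1.44-fold and 1.35-fold higher, the calnexin gene CANX 1.58-fold, and XBP1 1.55-fold. The 4 members below 0 were EDEM1 (1.65-fold lower, -0.71), which helps remove misfolded glycoproteins, DERL1 (-0.48) and the sensors ATF6 (-0.33) and ERN1 (-0.06). Genes of the translocon and coat complexes that carry protein into and out of the compartment had 0 of 21 past the margin and a median of 0.23, which turned to -0.08 after TPM.

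Within the ATF4 and amino acid response, which answers PERK and amino acid shortage, members parted. Of 29 genes 3 were higher by log2 1 or more and 1 was lower, with a median of 0.29 (-0.02 after TPM, where all genes had -0.24). The list median was larger in the other pairs, at 0.46 at 10 uM, where 5 genes were higher, and 0.49 without PTUPB. SLC3A2, the heavy chain shared by several amino acid transporters, read 196 against 506 FPKM (2.59-fold, 2.55 to 2.63), and ATF3, a stress transcription factor, 205 against 450 (2.20-fold, 2.16 to 2.24) from 4.62 to 9.99 in the 4 libraries without PTUPB 20 uM. SLC7A11, the light chain that pairs with SLC3A2 to import cystine, went the other way. It stood at 15.6, 25.1, 34.1 and 42.4 FPKM in the first 4 libraries, 70.0 with PTUPB 20 uM and 28.7 with the addition, 2.44-fold lower (2.36 to 2.52), whereas it was higher with enzalutamide at 0 and 10 uM. DDIT4, an inhibitor of mTORC1, was 2.04-fold higher, and its log2 difference was 1.01 at 20 uM and 1.21 at 10 uM. DDIT3 (CHOP) differed 1.23-fold (359 against 440 FPKM), ATF4 itself 1.54-fold and TRIB3 1.56-fold, while STC2, PSAT1 and CHAC1 lay at -0.52, -0.29 and -0.18. No aminoacyl-tRNA synthetase gene of 18 passed the margin, against 6.74% of all genes.

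**Figure D3:**
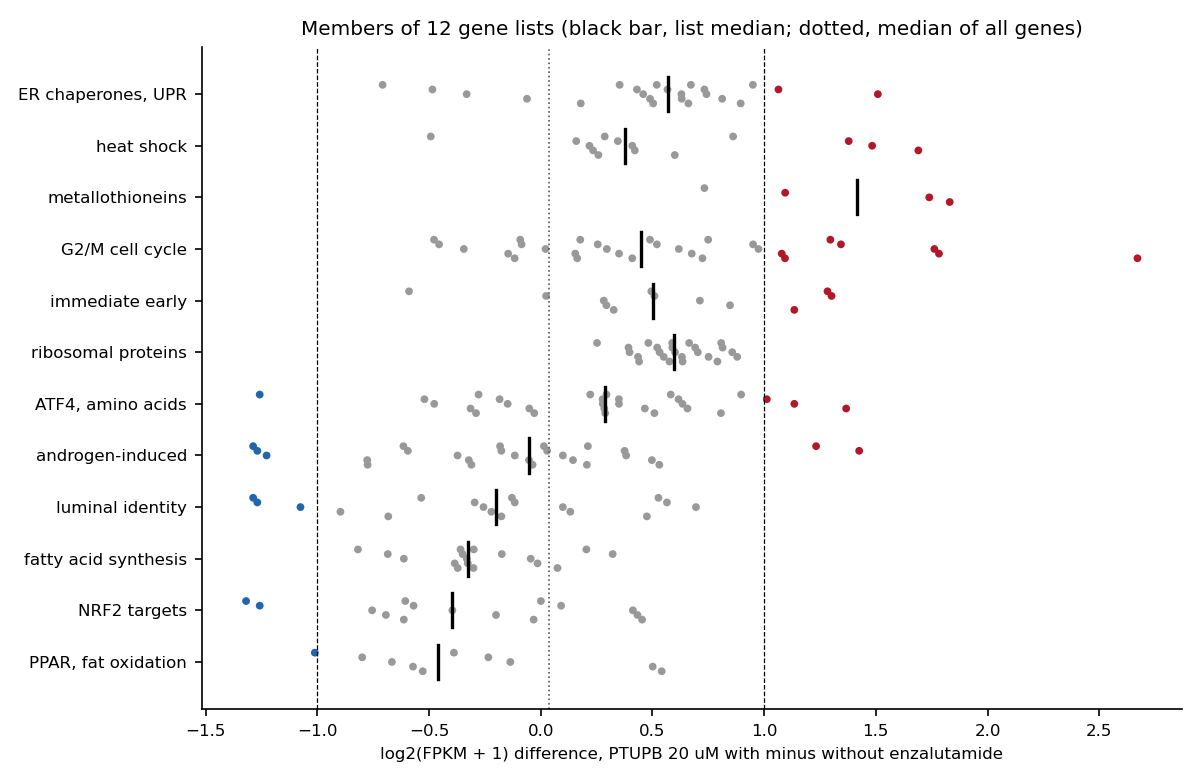
Differences at PTUPB 20 uM, with minus without enzalutamide, of the measured members of 12 gene lists; red and blue points are past log2 1, the black bar is the list median and the dotted line the median of all genes (0.04). All 4 metallothionein and zinc export genes and all 24 ribosomal protein genes lie above 0, and NRF2, fatty acid synthesis and fatty acid oxidation genes have medians below -0.3.

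Metallothioneins, small cysteine-rich proteins that bind zinc and copper, had 3 of 4 measured list members higher and a median of 1.42 (1.20 after TPM). In the other pairs the median was -0.12 at 10 uM and 0.48 without PTUPB. MT2A read 74.0, 99.9, 66.3 and 81.8 FPKM in the first 4 libraries, 69.2 with PTUPB 20 uM and 249 with the combination (3.59-fold, 3.42 to 3.78). MT1X went from 6.33 to 23.5 FPKM (3.71-fold, 3.22 to 4.28) and MT1F from 5.78 to 13.5 (2.33-fold, 2.00 to 2.72), and the zinc exporter gene SLC30A1 was 1.70-fold higher. Reads can be shared among metallothionein genes, so the split between them is uncertain.

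Heat shock genes, which encode cytosolic chaperones under HSF1, had 3 of 14 members higher, 0 lower and 13 above 0, a number that fell to 8 after TPM; the median was 0.38 (0.07 after TPM, still 0.31 above that of all genes). HSPA1B, an inducible HSP70 gene, was at 26.5, 21.5, 20.0 and 22.1 FPKM in the first 4 libraries, 5.68 with PTUPB 20 uM and 20.5 with the combination (3.62-fold, 3.19 to 4.11). It shares reads with its near-identical copy HSPA1A, which was not kept. DNAJB1, an HSP40 co-chaperone, was 13.5 to 18.3 FPKM in 5 libraries and 39.6 with the combination (2.93-fold, 2.73 to 3.14). HSPB1 (HSP27) was 28.7 against 76.2 FPKM (2.66-fold), both below the 155 to 312 of the other libraries. HSPA8, the constitutive HSP70, was the 1 member below 0, at 160 against 114 FPKM. For HSPA1B the combination was thus back near the level of the first 4 libraries, while DNAJB1 passed it and HSPB1 stayed under it.

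G2/M genes had a positive median at PTUPB 20 uM and negative ones in the other 2 enzalutamide pairs. Of 30 measured G2/M genes, 7 were higher by log2 1 or more at PTUPB 20 uM and 0 lower, 23 lay above 0 (21 after TPM), and the median was 0.45 (0.81 with a pseudocount of 0.1), against -1.27 in the 10 uM pair and -0.35 without PTUPB. The 7 were CDC20, HMMR, BIRC5, CCNB2, TPX2, CCNB1 and TOP2A. BIRC5 (survivin), part of the chromosomal passenger complex, was 24.1, 20.4, 19.6 and 5.79 FPKM in the first 4 libraries, 0.466 with PTUPB 20 uM and 3.97 with enzalutamide added (8.52-fold, 6.15 to 12.1; 42 against 278 fragments). HMMR, a spindle-associated protein, stood at 23.3, 15.8, 15.6, 3.99, 0.269 and 3.37 FPKM in the same order (12.5-fold at 20 uM, 8.28 to 19.7; 25 against 243 fragments). CCNB2, a mitotic cyclin, was at 22.0, 16.1, 15.6 and 4.39 FPKM, then 1.59 and 5.57 (3.51-fold, 2.80 to 4.43). All 3 genes were lowest with PTUPB 20 uM alone, and with the combination they stayed below the control and enzalutamide libraries.

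The members were not uniform. TOP2A, which untangles DNA before division, was 6.68-fold higher (4.68 to 9.78) and TPX2 2.85-fold, yet MKI67, the proliferation marker Ki-67, read 0.932 against 0.813 FPKM, and its counting interval included 1 (0.722 to 1.05). AURKA and KIF2C lay at -0.48 and -0.46, with counting intervals below 1. AURKB had 0 fragments with PTUPB 20 uM and 28 with the combination. At G1/S, 1 of 26 genes was higher (CDC6, a replication licensing factor, 1.28 on the log2 scale) and the median of 0.23 fell to -0.00 after TPM. TK1 (thymidine kinase) and CKS2, a subunit of cyclin-dependent kinases, were chosen after their values were seen: TK1 stood at 2.59 against 10.5 FPKM (4.04-fold, 3.27 to 5.04) and CKS2 lay 2.60-fold higher (2.12 to 3.21). In RNA from a whole culture, fewer cells in a cycle phase and less RNA per cell cannot be told apart.

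Androgen-induced genes had little of the difference that enzalutamide gave at lower PTUPB doses. Of 27 measured members, 3 were lower by log2 1 or more at PTUPB 20 uM (among them STEAP2 and C1orf116). The 2 that were higher were GNMT and EAF2. The median was -0.05, against -1.05 at 10 uM with 14 lower and -0.89 without PTUPB with 10 lower. After TPM the median at 20 uM was -0.33, where all genes had -0.24, and 6 members lay above 0 against 12 as deposited. With a pseudocount of 0.1 the median was -0.14. KLK3 stood at 105 and 56.6 FPKM without PTUPB, 89.7 and 19.0 at 10 uM, and 0.648 and 0.458 at 20 uM (without, then with enzalutamide; 71 and 39 fragments in the last pair), and its interval at 20 uM included no difference (1.41-fold lower, 0.944 to 2.15). FKBP5, a co-chaperone of steroid receptors, was at 35.4 and 6.21, 13.9 and 4.33, and 3.64 and 3.73 FPKM in the same order. TMPRSS2 was at 6.0 and 6.5 FPKM at 20 uM, after 137 and 72.5 without PTUPB. SLC45A3 was at 4.34 and 3.93, after 128 and 27.5. For these 4 genes the 2 libraries at 20 uM lay close together and below both libraries without PTUPB. C1orf116 kept the direction of the other pairs: 33.4 and 12.1, 29.3 and 10.3, and 2.36 and 0.436 FPKM (5.42-fold lower at 20 uM, 3.94 to 7.61). None of the 5 measured androgen-repressed genes passed the margin, and 4 of them stood at 0.384 FPKM or less in both 20 uM libraries.

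Luminal identity genes of the prostate included FOXA1 and STEAP2 with lower values in the combination. FOXA1, a pioneer factor that opens chromatin for steroid receptors, stood at 86.7 and 75.5 FPKM without PTUPB, 73.6 and 76.3 at 10 uM, and 7.69 and 3.12 at 20 uM, without and then with enzalutamide (2.46-fold lower in the last pair, 2.12 to 2.87). STEAP2, a metalloreductase of the prostate, was at 87.0 and 115, 125 and 140, and 13.3 and 4.86 FPKM in the same order (2.74-fold lower, 2.53 to 2.97). For FOXA1 the 2 libraries were close at 0 and 10 uM and parted at 20 uM, and for STEAP2 the library with enzalutamide was the higher at 0 and 10 uM and the lower at 20 uM. HOXB13 differed less, at 8.67 and 7.29 FPKM. The luminal list as a whole had 3 of 18 members lower, 0 higher and a median of -0.20 (-0.54 after TPM), and its keratins KRT8 and KRT18 lay at 0.53 and 0.56. The nuclear receptor gene NR3C1, which encodes the glucocorticoid receptor, fell under the level filter, with 0.517 against 0.172 FPKM. Of its 9 measured target genes PER1 and MT2A were the 2 past the margin, and FKBP5, KLF9 and TSC22D3 lay at 0.03, 0.03 and 0.21.

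Markers of the labelled cell type and of other cells were summed in each library. Summed FPKM over the 19 luminal genes was 745 with PTUPB 20 uM and 772 with enzalutamide added, against 1653 to 1853 in the other 4 libraries, although single members lay on both sides as above. HOXB13, FOLH1, KRT8 and KRT18 were present, while KLK3 was under 1 FPKM in both. Summed FPKM was at most 0.674 for 4 basal epithelial markers, 0.0792 for 6 blood markers and 0.496 for 4 endothelial markers in any library. The 7 stroma markers summed to 5.66 and 7.11 FPKM at 20 uM and to 3.71 to 4.50 in the other 4 libraries. Most of the sum at 20 uM was COL1A1 (4.60 and 6.47 FPKM), and the other 6 markers fell under the level filter.

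Genes that protect against oxidants lay mostly below 0, by amounts that depended on the level filter. Of 15 measured NRF2 targets, 2 were lower by log2 1 or more (AKR1C3 and SLC7A11), 0 higher and 5 above 0 (3 after TPM), with a median of -0.40 (-0.12 with a mean FPKM of 5 or more), against 0.35 in the 10 uM pair and 0.15 without PTUPB. GCLM, the modifier subunit of the enzyme that starts glutathione synthesis, was at 9.94 to 15.2 FPKM in the 4 libraries without PTUPB 20 uM, 170 with PTUPB 20 uM and 100 with the combination (1.69-fold lower, 1.65 to 1.74). Its catalytic partner GCLC was 1.79-fold lower and thioredoxin reductase TXNRD1 1.53-fold lower, whereas the heme oxygenase gene HMOX1 was 1.36-fold higher. The ferritin chain genes FTH1 and FTL lay at 0.41 and 0.45, with reads that may be shared with processed copies.

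Lipid genes were also mainly below 0. Fatty acid synthesis had 0 of 17 members past the margin, 3 above 0 (1 after TPM) and a median of -0.33; FASN, the synthase itself, was at 33.3 against 26.3 FPKM after 350 in control. In fatty acid oxidation and PPAR signalling 1 of 10 genes was lower, the median was -0.46 (0.19 at 10 uM and -0.03 without PTUPB), and CPT2, which re-forms acyl-CoA inside mitochondria, read 3.17 against 1.07 FPKM (2.97-fold lower, 2.54 to 3.48). PPARA was 1.95-fold and CPT1A 1.67-fold lower. Cholesterol synthesis and uptake had 0 of 18 members lower, and the list median of 0.15 turned to -0.16 after TPM.

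Of 11 measured genes of arachidonic acid, prostaglandin and epoxide metabolism, the pathways that PTUPB inhibits, 1 was higher and 1 lower by log2 1 or more, and the median of 0.12 turned to -0.16 after TPM. PTGS2, which encodes cyclooxygenase-2, had 0 fragments in both libraries at 20 uM and in 3 of the other 4, and EPHX2, which encodes soluble epoxide hydrolase, read 3.26 against 3.62 FPKM with a counting interval that included no difference (0.946 to 1.30). PTGS1 (cyclooxygenase-1) had 20 fragments with PTUPB 20 uM and 0 with the combination. Prostaglandin E synthase genes were better expressed: PTGES3 read 71.4 FPKM with PTUPB 20 uM and 103 with the combination, and PTGES2 read 18.8 and 30.1. PLA2G2A, a phospholipase secreted to free arachidonic acid from membranes, stood at 0.377 against 1.84 FPKM (15 and 57 fragments) and was higher with enzalutamide in all 3 pairs. AKR1C3, which makes prostaglandin F2 alpha and also reduces weak androgens to testosterone, was at 0.0597 to 0.351 FPKM in the first 4 libraries, 5.58 with PTUPB 20 uM and 1.64 with the combination (3.41-fold lower, 2.83 to 4.14). It is a close paralog of AKR1C1 and AKR1C2, with which reads may be shared. SRD5A3, a steroid reductase family gene that acts in dolichol synthesis, was 2.25-fold lower.

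Genes of protein synthesis lay mostly above 0 by small amounts. All 24 listed cytosolic ribosomal protein genes lay above 0 (23 after TPM) and none passed the margin, with a median of 0.60, against -0.01 at 10 uM and 0.42 without PTUPB. Over all 82 such genes found by symbol, 76 lay above 0 with a median of 0.58 (0.27 after TPM). Mitochondrial ribosomal proteins had 70 of 77 above 0 and a median of 0.43, and nuclear genes of oxidative phosphorylation 22 of 23 (14 after TPM) and 0.34. In the MYC and ribosome biogenesis list SRM, spermidine synthase, was the 1 of 21 past the margin, against 6.74% of all genes. The list median was 0.38 (0.12 after TPM). MYC itself was at 98.5 FPKM in control and at 2.48 and 3.27 at 20 uM. ACTB, cytoplasmic actin and a common reference gene, was not stable: it read 663, 632, 522 and 494 FPKM in the first 4 libraries, 355 with PTUPB 20 uM and 1035 with the combination (2.91-fold), while the other 13 housekeeping genes stayed within the margin.

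Many of these genes have short transcripts, and transcript length moved with the difference at 20 uM. Among 10631 protein-coding genes, split into 5 classes by the longest GENCODE 29 transcript, the shortest class (207 to 1972 bases) had a median difference of 0.31, with 120 genes higher and 22 lower by log2 1 or more. Medians of the next 3 classes were 0.15, 0.03 and -0.04, and the longest class (5722 to 34526 bases) had -0.14, with 4 higher and 33 lower. At 10 uM the classes lay between -0.05 and -0.00 and without PTUPB between 0.07 and -0.04. The Spearman correlation of length with the difference was -0.35 across genes at 20 uM, 0.05 at 10 uM and -0.13 without PTUPB; all genes of a pair share the same 2 libraries. By GC content 5 such classes ran from -0.07 (lowest GC) to 0.22 (highest) at 20 uM and from -0.06 to 0.09 at 10 uM, with Spearman correlations of 0.24 and 0.21 across genes, and 0.01 without PTUPB. Median transcript length was 1163 bases in the ribosomal protein list, 738 in the metallothionein list, 3144 in the chaperone list, 2876 in the G2/M list and 4525 in the fatty acid synthesis list. The part of transcript length, GC content and RNA quality in these differences was not tested.

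**Figure D4:**
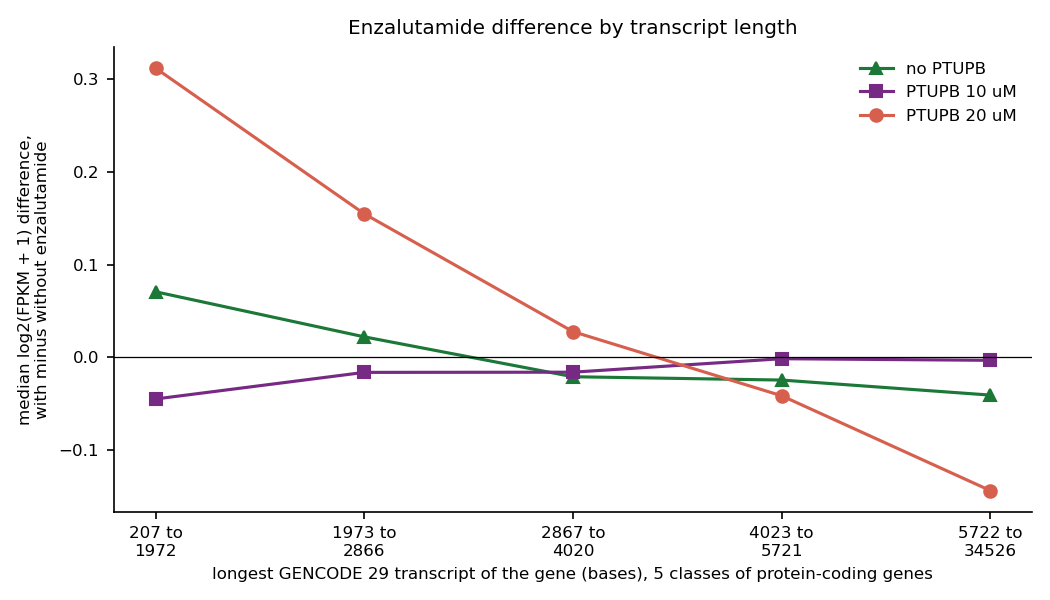
Median log2(FPKM + 1) difference, with minus without enzalutamide, for 5 classes of 10631 protein-coding genes by the length of the longest transcript, at no PTUPB (triangles), 10 uM (squares) and 20 uM (circles). The 20 uM line descends from 0.31 to -0.14, while the lines at 0 and 10 uM stay between -0.05 and 0.07.

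Genes of stress and death signalling gave a few single differences. In the immediate early list 3 of 12 genes were higher and 11 lay above 0 (10 after TPM): JUNB, an AP-1 subunit, at 34.9 against 87.6 FPKM (2.51-fold), DUSP5, a phosphatase of ERK, 2.76-fold, and ATF3. Of 24 p53 targets 21 lay above 0 (12 after TPM) and 1 passed the margin. That gene was BBC3, the pro-apoptotic PUMA, at 2.99 against 7.54 FPKM. GADD45A, PLK3 and AEN lay just under the margin, at 0.97, 0.97 and 0.96 (1.97-fold, 2.05-fold and 2.00-fold). CDKN1A (p21) differed 1.10-fold (427 against 469) and MDM2 1.16-fold. Of all genes 3.83% were higher, so 1 of 24 is near the background. NFKBIA, the inhibitor of NF-kB, was 2.45-fold higher at 39.9 FPKM and LCN2, a secreted siderophore-binding protein of the same list, 2.24-fold lower, at 78.3 against 35.0. In the lysosome list TFEB, its master regulator, was at 1.20 against 4.36 FPKM and GPNMB at 119 against 52.1, with the other 27 of 29 genes between. None of 25 hypoxia and glycolysis genes, 21 proteasome genes and 13 mitochondrially encoded mRNAs passed the margin. Their medians of 0.16, 0.23 and 0.18 turned to -0.09, -0.00 and -0.14 after TPM. In the hypoxia list EGLN3 was 12.2-fold lower (6.84 to 24.1), at 1.09 against 0.0889 FPKM (189 against 12 fragments). On the log2(FPKM + 1) scale, which understates folds of low genes, it lay at -0.94.

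**Figure D5:**
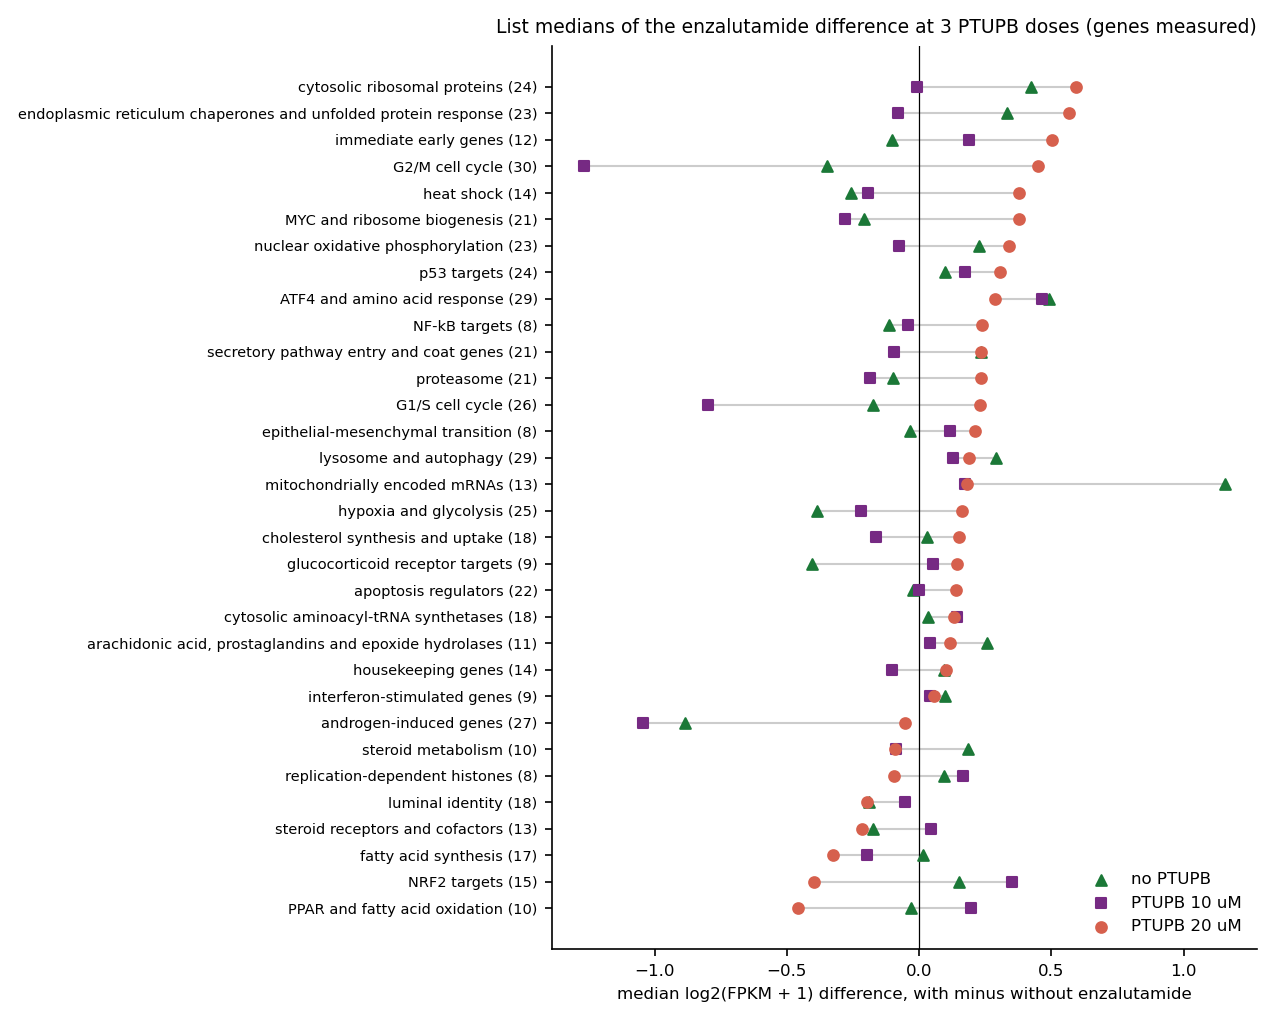
Medians of the enzalutamide difference (log2(FPKM + 1), with minus without) of every gene list with 8 or more measured members, at no PTUPB (triangles), 10 uM (squares) and 20 uM (circles), with the number of measured genes in parentheses. The G2/M medians are -0.35, -1.27 and 0.45 at the 3 doses, and only that at 20 uM is above 0. The androgen-induced medians are -0.89, -1.05 and -0.05, and that at 20 uM is the nearest to 0.

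The pairs at 0 and 10 uM share no library with the pair at 20 uM, so the genes they set apart could be followed in it. Among genes with a mean of 50 or more fragments, 142 (1.21%) were lower by log2 1 or more with enzalutamide at 10 uM. At 20 uM 23 of these were higher (16.2% of the 142 and 8.85% of the 260 higher genes), 4 were lower (2.82%) and the median was 0.26, against 0.04 for all genes. Of all 11694 genes with that many fragments, 2.22% were higher and 1.57% lower at 20 uM. The 23 included BIRC5, CCNB1, CCNB2, CDC20, CDKN3, CKS1B, CKS2, HMMR, NEK2, TK1, TOP2A and TPX2, and the 4 included C1orf116, H2AC13 and PNLIPRP3. Of 51 genes (0.436%) higher at 10 uM, 3 were higher (5.88%) and 6 lower (11.8%) at 20 uM, with a median of -0.03. Without PTUPB, 49 genes (0.419%) were lower with enzalutamide, of which 3 were higher (6.12%) and 6 lower (12.2%) at 20 uM, with a median of -0.04. Of 81 genes higher there (0.693%), 3 were higher (3.70%) and 3 lower (3.70%) at 20 uM, with a median of -0.13. IGFBP3, a binding protein of insulin-like growth factors, was 1.95 and 6.89 FPKM without PTUPB, 3.18 and 11.9 at 10 uM, and 5.58 and 2.11 at 20 uM; it was higher with enzalutamide in the first 2 pairs and lower in the third.

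The difference at 20 uM was tested against the mean of those at 0 and 10 uM with limma over all 6 libraries, which leaves 1 residual degree of freedom. The test sets that departure against a spread taken from the disagreement of the 0 and 10 uM pairs, in part pooled over genes. Its p-values therefore do not measure replicate spread. On simulated data many of its calls were false, so its p-values support no single gene here. No gene of 12960 passed an adjusted p of 0.05, 2722 had an unadjusted p under 0.05, and the smallest adjusted p was 0.168. The tested difference was 3.69 (SE 0.52) for CDC20, 2.88 (SE 0.26) for PER1, 2.52 (SE 0.23) for GADD45B, -2.20 (SE 0.25) for MARK1, -2.60 (SE 0.22) for IGFBP3 and -1.54 (SE 0.32) for TXNIP, each at a limma adjusted p of 0.168. KLK3, at 1.36 (SE 0.57), had a limma adjusted p of 0.270.

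Depth, recovered as whole fragments from the deposited values, ranged from 20156523 fragments with PTUPB 20 uM plus enzalutamide, the shallowest library, to 29450436, and PTUPB 20 uM held 22368705. Mitochondrially encoded genes took 5.83% and 7.12% of fragments at 20 uM and 6.47% to 13.8% elsewhere. The 10 most abundant genes took 8.93% and 11.4% at 20 uM. Counting intervals excluded 1 for 811 of the 873 genes past the margin and for 73.2% of all 12960. An interval that excludes 1 does not place a gene past the margin, and the spread between cultures is not known.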

How the data were processed

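RNA of 6 C4-2B MDVR cultures, 1 library per group, was sequenced as paired-end mRNA libraries. The authors deposited 1 table of FPKM per gene; alignment with HISAT and quantification with Cufflinks are named in the submitters' processing notes, and the build and strand setting are not given in the sources used here. Values of overlapping genes are therefore uncertain. Identifiers all matched GENCODE 29 (0 unmatched). FPKM times the exon length of that release fell on whole multiples of 1 step per library for 100% of values (within 0.05), which gave fragments and exact binomial 95% intervals of ratios. Those cover counting error only.

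Differences are of log2(FPKM + 1), so folds of low genes are understated on that scale; folds are ratios of FPKM. The filter was a mean FPKM of 1 or more and the margin log2 1. The test of the difference was two-sided, with an abundance trend and Benjamini-Hochberg adjustment, in limma 3.58.1 (R 4.3.3), and many of its calls on simulated data were false. Other steps used Python 3.11.15 with pandas 2.3.3, scipy 1.17.1 and matplotlib 3.10.9. The comparison and the lists were chosen with earlier results of these data known. Genes were named by rule: the 12 largest differences per direction with 5 or more FPKM and 50 or more fragments in the higher library; up to 4 per list with the largest absolute difference; a fixed set; and the 5 smallest p per direction. Other members of the lists named in the text were chosen after their values were seen. Promoter windows come from RefSeq (GRCh38.p14). Some genes of the lists are not reported here.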

Additional observations from a re-analysis of the deposited data

Results flagged for a closer look

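Some genes that are named here or belong to the lists, with a mean of 50 or more fragments, differed by log2 1 or more in opposite directions between the pair at PTUPB 20 uM and another pair. Against the 10 uM pair they were CDC20 (2.67 at 20 uM, -1.61 at 10 uM), BIRC5 (1.76 and -1.60), HMMR (1.78 and -1.73), CCNB2 (1.34 and -1.63), TPX2 (1.30 and -1.27), CCNB1 (1.09 and -1.40), TOP2A (1.08 and -1.17), TK1 (1.68 and -1.12), CKS2 (1.29 and -1.51), ID1 (-1.78 and 1.65), LCN2 (-1.14 and 1.40), IGFBP3 (-1.08 and 1.62) and the long non-coding RNA gene LINC02485 (-1.40 and 1.16). IGFBP3 and LINC02485 were also opposite without PTUPB, at 1.42 and 1.27. Each value compares 1 library with 1 library. The limma test of the difference gave these genes adjusted p-values above its threshold, and the opposition between any 2 single pairs was not tested.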

How the results depend on the processing

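No paired analysis was possible because each group holds 1 library and the samples carry no shared replicate number; for the same reason no replicate could be left out. Against 497 genes higher and 376 lower, a pseudocount of 0.1 gave 801 and 1015, no filter on low values 868 and 738, a mean FPKM of 5 or more 217 and 91, and a mean of 50 or more fragments (an alternative chosen after seeing the data) 260 and 184. Rescaling to TPM gave 417 and 1440, and median-of-ratios size factors 461 and 399. In the test of the difference, which called 0 genes, a mean FPKM of 5 or more called 2 higher, TPM 319 higher and 315 lower, and a mean of 50 or more fragments 49 and 63; the other alternatives called 0, among them limma without a trend (2558 at an unadjusted p under 0.05) and enzalutamide by linear PTUPB dose (1219). Many calls of this test were false on simulated data, so these counts are not evidence of changed genes; the cause of their spread was not tested. TPM changed the sign of 15 of 37 list medians, and a mean FPKM of 5 or more that of 2, steroid metabolism and xenobiotic metabolism. Low counts limit the mitotic genes at PTUPB 20 uM alone, where HMMR had 25 fragments and BIRC5 42.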
